A study of Mus musculus with 30 samples.

Results

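The 44 genes described here encode lysosomal proteases called cathepsins (Cts), subunits of the vacuolar proton pump (Atp6v0 and Atp6v1) and lysosome-associated membrane proteins (Lamp). They were all genes of the array whose single annotated symbol begins with Cts followed by letters or digits, with Atp6v, or with Lamp and a digit, 44 of 17097 genes in all. Atp6v0c, Atp6v1c1 and Atp6v1g1 were not among the 44, so the pump was covered only in part. Expression was measured on 30 microarrays. The mice were BALB/c animals of 8 to 10 weeks that carried the DO11.10 transgene and no RAG2 (RAG2-/-), and CD11c+ and CD4+ cells were isolated from them. In every group, the transgenic T cell receptor recognises an ovalbumin (OVA) peptide, and RAG2 loss stops the mice from rearranging their own receptor genes, so they lack B cells of their own. Each cell type had 5 groups of 3 arrays. The baseline was unimmunised mice. Priming was an injection under the skin of OVA, 100 micrograms a mouse, emulsified in complete Freund's adjuvant. Further primed mice were given 10 mg/kg of a control IgG or 10 mg/kg of abatacept, a fusion of CTLA-4 with an antibody tail that binds CD80 and CD86 and blocks costimulation. Tolerised mice drank OVA, for which one label gives 50 mg/ml and another 50 mg/kg. CD11c is a surface integrin that is high on dendritic cells. In all 5 groups the CD11c+ cells were taken with microbeads from spleen and lymph nodes together. Cells of the 3 primed groups, of both types, are listed at 10 days after immunisation, and no day is listed for the other groups. CD4+ cells were left after the removal of other cells. Their source was the axillary nodes for the 3 primed groups, the mesenteric nodes for tolerised mice, and spleen with lymph nodes for unimmunised mice, so tissue and treatment changed together in those CD4+ comparisons. Both isolations were labelled as over 90% pure. Levels are log2 values of 1 probe set per gene, given as single arrays or as mean ± SD (n = 3). Whether the replicates of a group were different mice is not stated in the labels, and p-values here measure only how far these samples spread, and part of that may be technical.

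Lysosomes degrade what a cell takes up, and in antigen-presenting cells they and late endosomes also make the peptides that are loaded on MHC class II. The vacuolar proton pump acidifies them: its V1 part splits ATP in the cytosol, and its V0 part carries protons across the membrane. Acid activates the cathepsins, of which cathepsin S and cathepsin L cut the invariant chain, while cathepsins B, D and E degrade proteins more broadly. LAMP1 and LAMP2 cover much of the inner face of the lysosomal membrane. By role, the 44 genes were 5 endosomal endopeptidases (Ctss, Ctsl, Ctsd, Ctse, Ctsb), 7 other papain-like cathepsins, 2 serine cathepsins, 10 V1 genes, 8 V0 genes, 3 Lamp genes and 9 further cathepsins, most of which are known from the rodent placenta. Lamp3 is not analysed here.

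Many lysosomal promoters hold an E-box, and the MiT/TFE transcription factors, such as TFEB, are known to bind a longer form of it called the CLEAR element. RefSeq promoters, from 250 bases before to 50 after an annotated start site, matched 36 of the 44 genes. The E-box CACGTG, which reads the same on both strands, was in 10 of them, or 27.8%, and in 7.15% of all 32851 promoters of that length, which is 8.09% of the 27025 genes they belong to. With 1 flanking base, TCACGTG was searched on both strands and was found for 19.4% of the 36 genes, in 3.77% of all promoters and for 4.29% of all genes. The palindrome TCACGTGA, which contains the other pair of motifs, was at 13.9%, 0.974% and 1.13% by the same counts. These matches are letters in a window, and nothing about binding was measured. Of the 21 genes that were both tested and matched, 9 held CACGTG. Ctsd, the aspartic protease cathepsin D, is shown whole up to its start site because it has 2 E-boxes and changed in several comparisons. Lamp1 is shown because its 4 E-boxes lie close together. Capitals mark CACGTG, and each sequence runs 5′ to 3′ on the gene's own strand in RefSeq's GRCm38.p6.
Ctsd, chr7:142387828-142388077, minus strand: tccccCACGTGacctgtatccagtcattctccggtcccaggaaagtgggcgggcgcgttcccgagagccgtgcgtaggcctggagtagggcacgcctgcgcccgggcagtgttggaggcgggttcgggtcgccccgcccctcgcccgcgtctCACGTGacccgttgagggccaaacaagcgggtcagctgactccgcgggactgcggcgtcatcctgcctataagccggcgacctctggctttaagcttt
Lamp1, chr8:13159081-13159160, plus strand: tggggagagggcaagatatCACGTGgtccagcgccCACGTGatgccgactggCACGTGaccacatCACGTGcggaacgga

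The other tested genes with an E-box are given as 30 bases around the E-box nearest the promoter's start site, to set the pump subunits beside the proteases. Ctsa encodes cathepsin A, a serine carboxypeptidase that protects other lysosomal enzymes, and its site began at position 6 from the start. Among the pump genes the site began at -18 in Atp6v0b, -3 in Atp6v0d1, 4 in Atp6v0e and -131 in Atp6v1a. It began at -236 in Ctsl and at -79 in Ctsf. Positions count from the start site of the promoter. In Ctsa, Atp6v0b, Atp6v1a and Ctsl that start site lies inside the annotated span of the gene.
Ctsa, chr2:164833766-164833795, plus strand: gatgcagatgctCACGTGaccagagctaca
Atp6v0b, chr4:117887330-117887359, minus strand: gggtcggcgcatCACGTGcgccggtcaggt
Atp6v0d1, chr8:105566050-105566079, minus strand: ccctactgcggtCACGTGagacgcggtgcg
Atp6v0e, chr17:26676387-26676416, plus strand: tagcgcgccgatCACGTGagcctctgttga
Atp6v1a, chr16:44139373-44139402, minus strand: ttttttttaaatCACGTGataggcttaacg
Ctsl, chr13:64370739-64370768, minus strand: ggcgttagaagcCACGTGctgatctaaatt
Ctsf, chr19:4855074-4855103, plus strand: caccccgtggtcCACGTGcctcgcgtaaat

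Array medians ran from 4.46 to 4.54, and arrays of a group correlated with each other between 0.983 and 0.995 across probe sets, which are not independent replicates. A gene was tested in a cell type if 3 or more of its arrays were above their median, which kept 29 of the 44 genes in each cell type. Those 29 are not all members, and a gene could pass through the group in which it was high. The other 15 were below the median on every one of the 30 arrays: the 9 further cathepsins, Ctsk, Lamp5, Atp6v0a4, Atp6v1b1, Atp6v1c2 and Atp6v1e2. Ctsk, the cathepsin of osteoclasts, had group means between 2.88 and 3.20, and Lamp5, which is known from plasmacytoid dendritic cells and neurons, between 2.68 and 2.97. The salivary transcript Amy1 was above 7 on 5 CD11c+ arrays: unimmunised replicate 2, control IgG replicates 2 and 3, abatacept replicate 3 and tolerised replicate 3. No label states whether mice were male or female. Eif2s3y, a Y-linked gene, had a mean of 8.58 in CD11c+ primed and 7.63 in control IgG arrays, and between 2.53 and 2.62 in the other 3 CD11c+ groups. In CD4+ cells it averaged 8.62 in primed and 8.89 in tolerised arrays, and between 2.51 and 2.60 elsewhere. The X-linked Xist was above the median together with Eif2s3y on all CD11c+ control IgG arrays and on all CD4+ primed and tolerised arrays.

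Marker lists were read beside the lysosomal genes, as the mean log2 level of each list (the plot of marker lists by group). In CD11c+ cells, 6 dendritic cell markers averaged 7.83 in unimmunised mice (7.77 to 7.89 over arrays), 9.12 in primed (9.10 to 9.16) and 8.81 in tolerised mice (8.67 to 8.96). The 8 monocyte and macrophage markers went the other way, at 9.60 (9.58 to 9.61), 8.94 (8.83 to 9.06) and 8.70 (8.46 to 8.97). The 7 red pulp macrophage markers, such as Spic and C1qa, averaged 11.05 (11.01 to 11.12), 10.08 (9.94 to 10.18) and 9.55 (9.02 to 9.84). The CD11c+ fraction therefore carried the transcripts of macrophages as well as of dendritic cells, and none of these markers was below the median on all arrays of a group. The 9 neutrophil markers averaged 6.64 (6.22 to 7.37), 9.27 (9.15 to 9.38) and 9.45 (8.91 to 10.23), with Elane below the median on all unimmunised and primed arrays and Mmp8 on all unimmunised ones. In these bulk samples, fewer cells of a type and less RNA per cell cannot be told apart.

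**Figure D1:**
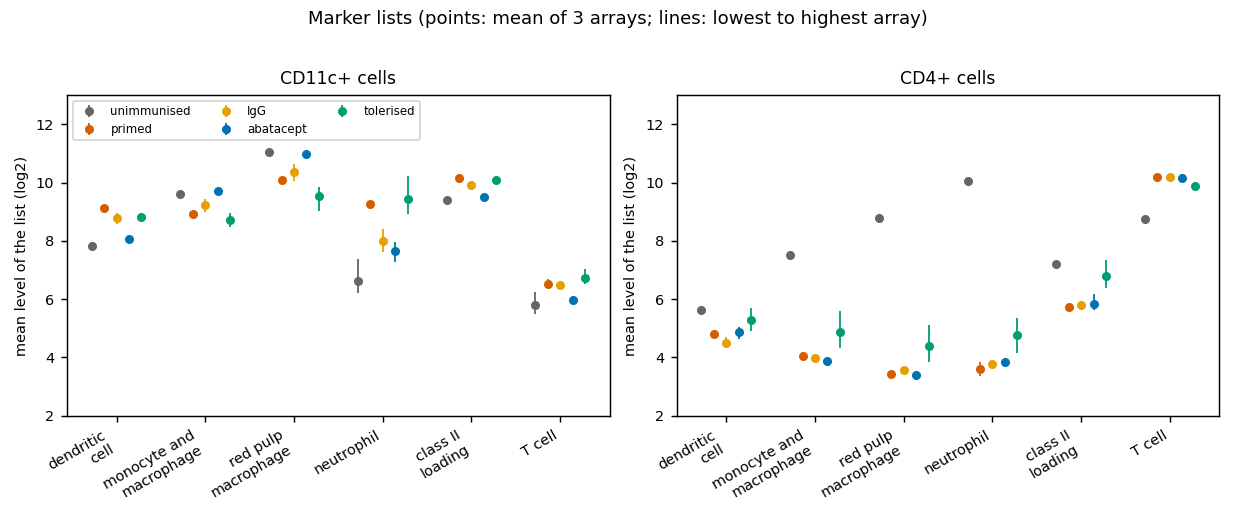
Mean log2 level of 6 marker lists in each group of CD11c+ cells (left) and CD4+ cells (right); points are means of 3 arrays and lines run from the lowest to the highest array. In CD11c+ cells the macrophage lists were highest in unimmunised and abatacept-treated mice, and in CD4+ cells the unimmunised arrays stand apart with red pulp macrophage markers at 8.77 and neutrophil markers at 10.05.

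In CD11c+ cells of primed mice, as set against unimmunised mice, the cathepsin genes split in their direction. Cathepsins B and D and the membrane genes Lamp1 and Lamp2 fell, cathepsins E and H rose, and none of the 7 V1 pump genes tested was called. Of 29 genes, 5 were called higher, or 17.2%, where 25.5% of all 10203 genes tested were called higher. Another 7 were called lower, or 24.1%, where 13.2% of all genes were called lower. The median difference over the 29 genes was -0.07, and over all genes tested it was 0.09. Arrays of these groups did not overlap in 55.2% of the 29 genes and in 51.2% of all genes tested. When arrays were quantile-normalized again, all genes split into 1971 higher and 1926 lower in place of 2598 and 1343, and the 29 into 4 and 9.

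Among the endosomal endopeptidases, Ctsd stood at 10.77, 10.79 and 10.62 in unimmunised mice and at 10.18, 10.14 and 10.10 in primed mice. The groups did not overlap, and Ctsd fell by 0.59 ± 0.11 (SE) on the log2 scale, or 1.5-fold, with an adjusted p of 0.00122 in limma. Ctsb, a broad cysteine protease, stood at 12.59, 12.66 and 12.54 and then at 12.22, 12.36 and 12.06. Its fall of 0.38 ± 0.11 had an adjusted p of 0.0141, and it was not called without unimmunised replicate 2, without primed replicate 3 or with the salivary level as a covariate. The other 3 probe sets of Ctsb were lower by more, at -0.63, -0.64 and -0.83. Ctse, an aspartic protease of endosomes, went the opposite way to its relative Ctsd. It stood at 7.20, 7.97 and 7.90 in unimmunised and at 8.49, 8.64 and 8.48 in primed mice, and rose by 0.85 ± 0.20 (adjusted p = 0.00451).

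Ctsl stood at 9.63, 9.84 and 9.65 in unimmunised and at 10.05, 10.08 and 9.92 in primed mice, a rise of 0.31 ± 0.08 (adjusted p = 0.00963). Its second probe set gave -0.42, and the mean of both turned the difference to -0.055 (adjusted p = 0.682), so the direction holds for 1 probe set only. The second one lay near the array medians, at 5.00 in unimmunised and 4.58 in primed mice. Ctss, which trims the invariant chain in dendritic cells and B cells, was not called. Its arrays read 12.14, 11.93 and 12.05 in unimmunised and 11.86, 11.89 and 11.85 in primed mice, a difference of -0.17 ± 0.08 (adjusted p = 0.0829).

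Among the other papain-like cathepsins, 2 were called higher and 2 lower of 6 tested. Ctsh, an aminopeptidase, showed the clearest separation: 9.74, 9.65 and 9.65 in unimmunised and 10.38, 10.41 and 10.49 in primed mice. It rose by 0.75 ± 0.08, or 1.68-fold (adjusted p = 3.42e-05). Ctsw, which is known from cytotoxic lymphocytes, stood at 6.74, 6.88 and 7.91 and then at 7.77, 7.78 and 8.01. Those groups overlapped, and the rise of 0.67 ± 0.25 (adjusted p = 0.0457) was not called without any 1 of the 3 primed arrays or unimmunised replicate 1 or 2. The 6 natural killer cell markers averaged 7.02 in unimmunised and 7.44 in primed mice, with 4 of 6 called higher. Their part in the Ctsw result was not tested.

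Ctsc, which activates the serine proteases of granules, stood at 10.46, 10.31 and 10.37 and then at 10.08, 10.08 and 9.96, a fall of 0.34 ± 0.09 (adjusted p = 0.0078). Its other 2 probe sets gave 0.34 and 0.60, and the mean of all 3 gave 0.20 (adjusted p = 0.162), so this direction too belongs to 1 probe set. Ctsf fell by 0.31 ± 0.09 (adjusted p = 0.0125) near the array medians, from 4.85 ± 0.08 to 4.54 ± 0.18, and was not called in a fit on only these groups or without unimmunised replicate 2 or primed replicate 1. Its second probe set gave -1.07. Ctsz, an exopeptidase, differed by 0.01 ± 0.07 and was not called.

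Both tested Lamp genes fell. Lamp2 stood at 9.29, 9.34 and 9.29 in unimmunised and at 9.0, 8.90 and 8.79 in primed mice, a fall of 0.41 ± 0.07 (adjusted p = 0.000761). Eif2s3y, at 8.58 in primed and 2.59 in unimmunised arrays, differed between these groups. That split applies to every gene of this comparison, and Lamp2 lies on chromosome X. The part of the split in these results was not tested. The other 2 probe sets of Lamp2 gave -0.51 and -0.12. Lamp1 stood at 12.10, 12.03 and 12.05 and then at 11.88, 11.80 and 11.76, a fall of 0.24 ± 0.07 (adjusted p = 0.0145) that was not called without primed replicate 3. Leaving out the 5 CD11c+ arrays high in Amy1 ended the calls of Ctsb, Ctsf, Ctsw and Lamp1.

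**Figure D2:**
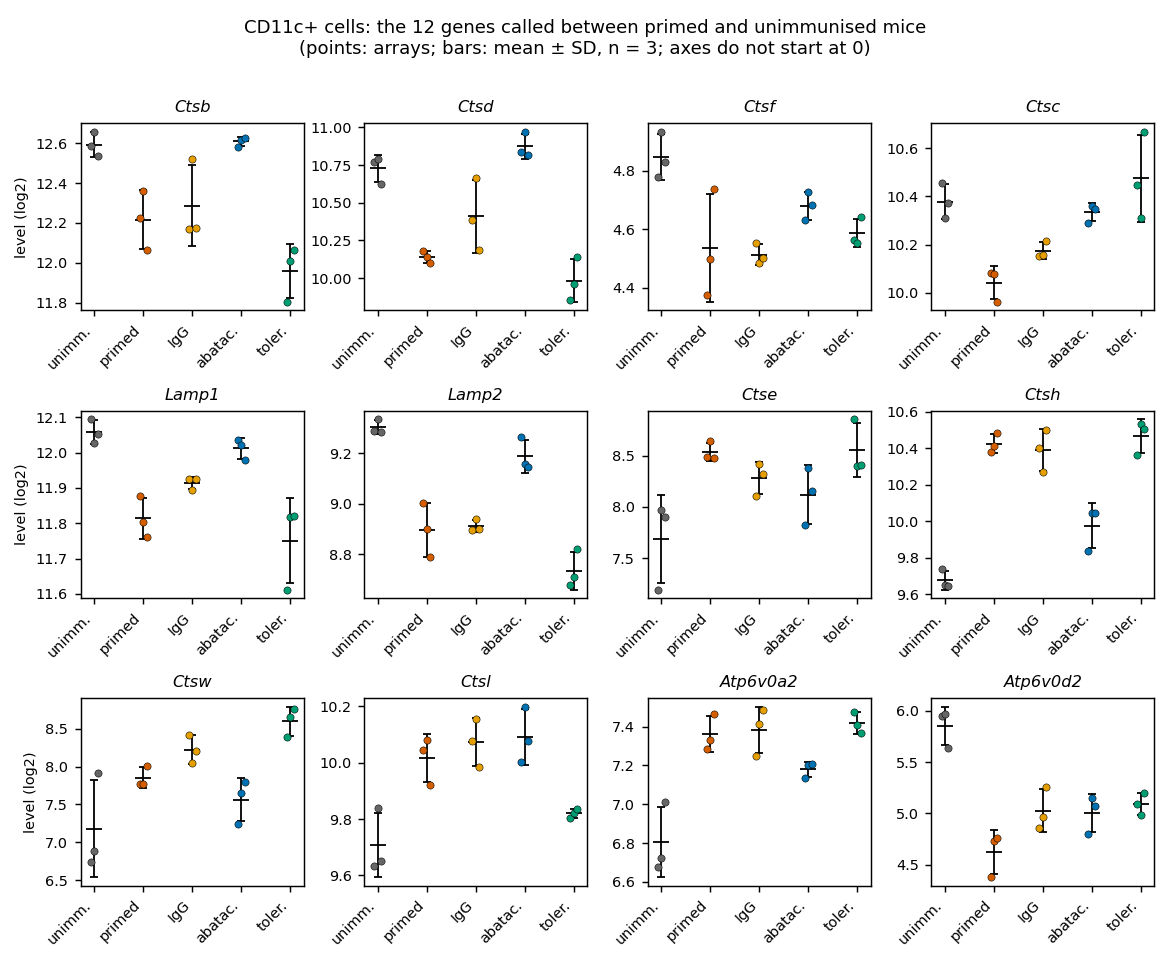
Log2 level on each CD11c+ array (points) with mean ± SD (bars, n = 3) for the 12 genes called between primed and unimmunised mice, in the 5 groups; each panel has its own axis, which does not start at 0. In primed and tolerised mice Ctsd and Lamp2 lie below the unimmunised arrays and Ctsh and Atp6v0a2 above them.

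Among the proton pump genes 2 of 14 tested were called, and both were V0 subunits that exist in several forms. Of the 7 V0 genes tested 1 was called higher and 1 lower, or 14.3% each. Of all genes tested, 25.5% were called higher and 13.2% lower. Atp6v0d2, the d2 subunit known from osteoclasts and macrophages, stood at 5.95, 5.96 and 5.63 in unimmunised and at 4.38, 4.73 and 4.76 in primed mice. Its fall of 1.23 ± 0.14, or 2.34-fold, was the largest of the 29 genes (adjusted p = 3.84e-05). Its primed mean of 4.62 lay close to the array medians, so the fold is not exact. Atp6v0a2, an a subunit, stood at 6.68, 6.72 and 7.01 and then at 7.29, 7.33 and 7.46, a rise of 0.56 ± 0.09 (adjusted p = 0.000575), and its other 2 probe sets were higher by 0.50 and 0.31. The 7 V1 genes ran from -0.11 in Atp6v1f to 0.23 in Atp6v1g2, whose means of 4.62 and 4.85 lay close to the array medians, and the V0 genes Atp6v0b, Atp6v0d1 and Atp6v0e were at -0.07 ± 0.10, -0.07 ± 0.07 and 0.02 ± 0.08.

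Other lysosomal genes, outside the 44, were read from a list of 33 hydrolases, transporters and membrane genes. Of 27 tested, 12 were called lower and 3 higher, with a median of -0.21. Tpp1, a tripeptidyl peptidase, fell by 0.95 ± 0.14 and Laptm4a by 0.65 ± 0.09. Ppt1, a thioesterase, rose by 0.86 ± 0.08, and Ifi30, the thiol reductase that opens antigen disulfides, by 0.53 ± 0.08. Of the 4 MiT/TFE genes, Tfe3 fell by 0.35 ± 0.08 and Mitf by 0.48 ± 0.12. Cathepsin inhibitors went up: 4 of 6 tested were called higher and 1 lower, with Cst7 up by 1.92 ± 0.18 and Stfa3 by 1.94 ± 0.25. The class II loading genes were higher in 8 of 9, such as Ciita at 1.55 ± 0.15. In the same comparison 6 of 8 monocyte and macrophage markers and 7 of 7 red pulp markers were called lower, and 8 of 8 neutrophil markers and 6 of 6 dendritic cell markers higher. The part of these markers in the lysosomal results was not tested.

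Tolerised mice were also set against the unimmunised group, and those arrays are shared with the primed comparison, so both sets of values stand side by side and are not independent. Of 29 genes, 6 were called higher (20.7%, against 31.9% of all genes) and 10 lower (34.5%, against 16.7%). The median was -0.09, and 0.10 over all genes tested. With quantile normalization again, all genes split into 2480 higher and 2375 lower in place of 3252 and 1706, and the 29 still into 6 and 10. Ctsd stood at 9.86, 9.96 and 10.14 in tolerised mice, and it fell by 0.74 ± 0.11 (adjusted p = 0.000132). Ctsb stood at 11.80, 12.01 and 12.06 and fell by 0.63 ± 0.11 (adjusted p = 0.000327). Lamp2 stood at 8.68, 8.71 and 8.82 and fell by 0.57 ± 0.07 (adjusted p = 3.42e-05). Its other 2 probe sets gave -0.55 and 0.23, and the mean of all 3 fell by 0.30 (adjusted p = 0.00488). The mean of the Ctsb probe sets fell by 1.04. All tolerised arrays of these 3 genes lay below all unimmunised arrays. The groups did not overlap in 58.6% of the 29 genes and in 52.0% of all genes tested.

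The 6 genes that rose in tolerised mice were Ctsg, Ctsw, Ctse, Ctsh, Atp6v0a2 and Atp6v1b2. Ctsh stood at 10.36, 10.54 and 10.51, a rise of 0.79 ± 0.08 (adjusted p = 1.09e-05), and Ctsw at 8.39, 8.65 and 8.76, a rise of 1.42 ± 0.25 (adjusted p = 0.000397). Ctsg, the granule protease cathepsin G, stood at 7.03, 4.69 and 4.38 against 3.29, 3.12 and 3.33, and the rise of 2.12 ± 0.49 (adjusted p = 0.00282) was 1.29 without replicate 1. Only tolerised replicates 1 and 2 and primed replicate 1 carried Ctsg past the filter, so its p-value is no separate support for the rise. The neutrophil list, at 8.91 to 10.23 on the tolerised arrays, and the mast cell and basophil list, at 3.78 to 5.43, were also above the unimmunised ranges, and their part was not tested. Ctse was at 8.55 ± 0.26, a rise of 0.87 ± 0.20 (adjusted p = 0.00276). In the pump, Atp6v0a2 rose by 0.61 ± 0.09 and Atp6v1b2, the B2 subunit of V1, by 0.52 ± 0.10. Atp6v0d2 fell by 0.76 ± 0.14, Atp6v0e2 by 0.49 ± 0.16 and Atp6v0a1 by 0.40 ± 0.09.

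Ctsa fell by 0.42 ± 0.09 (adjusted p = 0.00153), from 9.77 ± 0.03 to 9.34 ± 0.16, and Lamp1 by 0.31 ± 0.07 (adjusted p = 0.00273), to 11.61, 11.82 and 11.82. Ctss stood at 11.75, 11.88 and 11.91, and its fall of 0.19 ± 0.08 (adjusted p = 0.0467) was lost in 10 of 14 alternatives, among them leaving out unimmunised replicate 1 or 3 or tolerised replicate 1 or 2. Ctsl differed by 0.11 and Ctsc by 0.10, and neither was called. The other 2 probe sets of Ctsc gave 0.32 and 1.26, and the last stood at 4.97 in unimmunised mice, near the array medians. The second probe set of Ctsl gave 0.02. Calls of Atp6v0e2 and Ctsf were lost with array weights and without unimmunised replicate 2, tolerised replicate 1 or tolerised replicate 2, and that of Atp6v0e2 also without unimmunised replicate 3. Those of Atp6v0a1 and Ctsf were lost without the arrays high in Amy1, and that of Ctsa with the mean of its probe sets. Of the 27 other lysosomal genes, 16 were lower and 3 higher (median -0.33), with Cd68 down by 1.22 ± 0.12, Lipa by 1.15 ± 0.11 and Hexa by 0.66 ± 0.07. The 7 red pulp markers were all called lower.

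Tolerised and primed mice, compared directly, differed in 1 of the 29 genes in CD11c+ cells. Ctsc stood at 10.45, 10.31 and 10.67 in tolerised mice and rose by 0.43 ± 0.09 against primed mice (adjusted p = 0.0179), while 1.39% of all genes were called higher and 1.45% lower. The call was lost without any 1 primed array, without tolerised replicate 3, in a fit on only these groups and with the mean of its probe sets. Atp6v0d2 was higher by 0.47 ± 0.14 (adjusted p = 0.0993) and Ctsw by 0.75 ± 0.25 (adjusted p = 0.132), and neither was called. Eif2s3y was high in primed and low in tolerised CD11c+ arrays, and its part was not tested. Among cathepsin inhibitors, Stfa3 rose by 2.95 ± 0.25 and Stfa2l1 by 2.66 ± 0.29 in tolerised mice. Control IgG against primed mice gave no called gene among the 29, with 0% of all genes called higher and 0.0196% lower. At an unadjusted p under 0.05 there were 3 of the 29 and 1038 of all genes, or 10.2%. The smallest adjusted p of the 29 was 0.345.

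**Figure D3:**
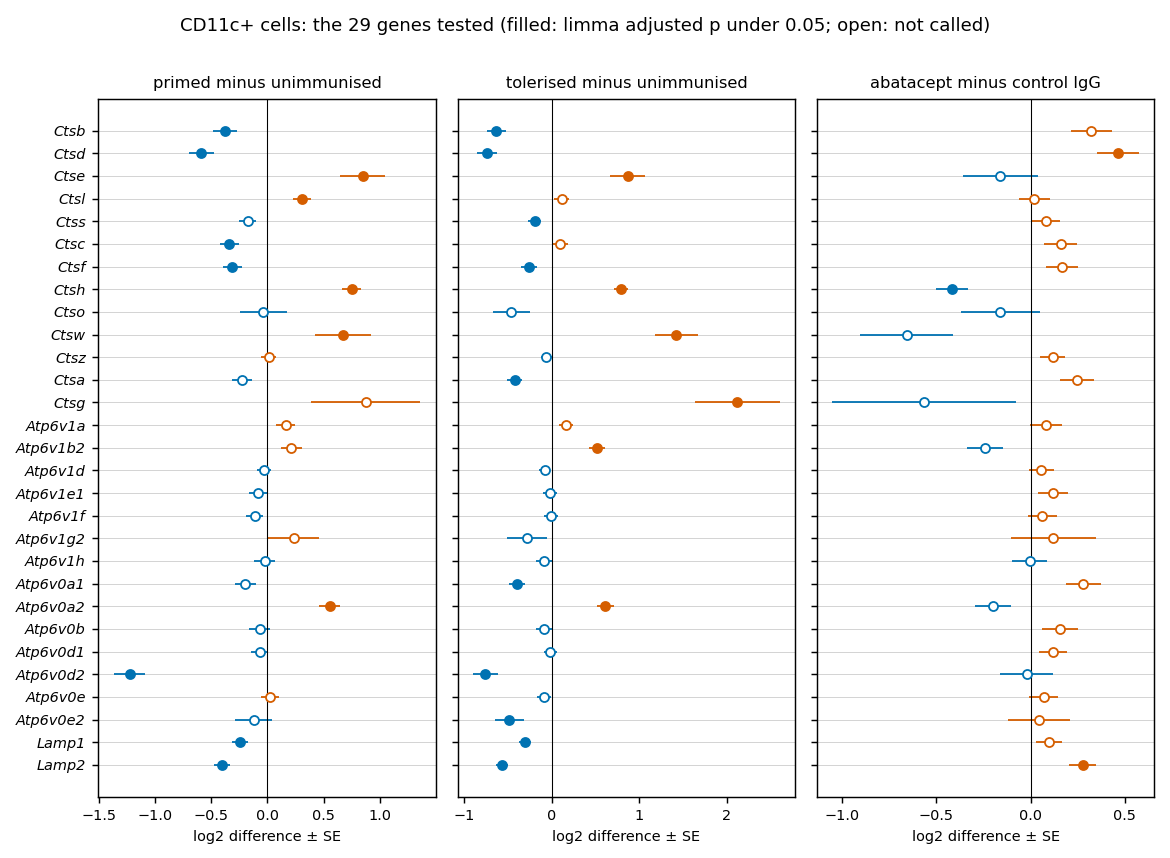
Log2 difference ± SE in CD11c+ cells for the 29 genes tested, in order of role, for primed minus unimmunised, tolerised minus unimmunised and abatacept minus control IgG; filled points passed an adjusted p of 0.05 in limma and open points did not. The panels show 12, 16 and 3 filled points, and Ctsd, Lamp2 and Ctsh lie on opposite sides of 0 in the first and last panels.

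Within primed mice, abatacept was set against control IgG, which asks how these genes responded when costimulation was blocked. In CD11c+ cells, Ctsd and Lamp2 were higher under abatacept and Ctsh was lower. These were 2 genes called higher of 29 (6.9%, against 6.43% of all genes) and 1 lower (3.45%, against 8.86%), so the share called higher was near that of all genes and the share called lower was below it. The median was 0.08, and -0.02 over all genes tested. Ctsd stood at 10.38, 10.66 and 10.18 under control IgG and at 10.84, 10.97 and 10.82 under abatacept, a rise of 0.46 ± 0.11 (adjusted p = 0.0151). Lamp2 stood at 8.90, 8.94 and 8.90 and then at 9.26, 9.16 and 9.14, a rise of 0.28 ± 0.07 (adjusted p = 0.0212). Ctsh stood at 10.40, 10.27 and 10.50 and then at 9.84, 10.05 and 10.05, a fall of 0.42 ± 0.08 (adjusted p = 0.00682). For these 3 genes the groups did not overlap, which also held for genes that were not called. The abatacept means were 10.88, 9.19 and 9.98, and the unimmunised means 10.73, 9.30 and 9.68.

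The calls of Ctsd and Lamp2 were lost without control IgG replicate 1, control IgG replicate 3 or abatacept replicate 2, that of Lamp2 also without abatacept replicate 1, and that of Ctsd also in a fit on only these groups. Without any 1 of those 3 shared arrays, 1 of the 29 genes was called. Amy1 averaged 9.33 in control IgG and 4.37 in abatacept arrays. With the salivary level as a covariate the 3 calls were kept, with differences of 0.52 in Ctsd, 0.30 in Lamp2 and -0.41 in Ctsh. Without the arrays high in Amy1, which leaves 1 control IgG array, none of the 3 was called, with differences of 0.52, 0.31 and -0.46. Eif2s3y averaged 7.63 in control IgG and 2.53 in abatacept arrays, and its part was not tested. Ctsb was higher by 0.32 ± 0.11 (adjusted p = 0.0604) and Atp6v0a1 by 0.28 ± 0.09 (adjusted p = 0.0607), and neither was called. The other 3 probe sets of Ctsb were higher by 0.52, 0.48 and 0.67, and those of Atp6v0a1 by 0.39, 0.29 and 0.41. The last 2 of Atp6v0a1 averaged 4.60 and 3.90 over the 30 arrays, near or below their medians. Ctss stood at 11.96, 12.07 and 12.07 and then at 12.05, 12.18 and 12.12, Ctsl at 10.08, 10.15 and 9.98 and then at 10.00, 10.20 and 10.08. Ctse stood at 8.11, 8.42 and 8.32 and then at 7.82, 8.38 and 8.16, and Lamp1 at 11.93, 11.89 and 11.93 and then at 12.04, 12.02 and 11.98. None of these 4 was called, and only in Lamp1 did the groups not overlap.

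The comparison of abatacept with control IgG shares no array with that of primed and unimmunised mice. Of the 12 genes called in the latter, 10 had the opposite sign under abatacept, or 83.3%, while 94.5% of all 3941 genes called there did. Over the 29 genes tested it was 72.4% and over all genes tested 78.6%, so the turn of sign was no more common here than elsewhere on the array. The exceptions were Atp6v0d2, at -0.02, and Ctsl, at 0.02. Eif2s3y was high in primed and control IgG arrays and low in unimmunised and abatacept arrays. Both comparisons carry that split, and its part in the signs was not tested. Of the 27 other lysosomal genes, 8 were higher under abatacept and 3 lower, with Cd68 up by 0.55 ± 0.12 and Lipa by 0.49 ± 0.11, and Ifi30 down by 0.38 ± 0.08. Among markers, 5 of 8 of the monocyte and macrophage list were called higher and 1 lower, 3 of 7 red pulp markers higher, and 5 of 6 dendritic cell markers lower. Class II loading genes were lower in 7 of 9, and Cst7 fell by 1.38 ± 0.18.

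In CD4+ cells the unimmunised arrays must be described first, because they carried markers of other cells. Their 7 red pulp markers averaged 8.77 (8.63 to 8.91), against 3.44 (3.33 to 3.49) in primed mice, where 6 of 7 were below the median. The 8 monocyte and macrophage markers averaged 7.53 (7.34 to 7.66) and 4.05 (3.94 to 4.17), the 9 neutrophil markers 10.05 (9.91 to 10.17) and 3.62 (3.37 to 3.83), and the 5 mast cell and basophil markers 6.26 (6.11 to 6.38) and 3.24 (3.22 to 3.28). The 7 T cell markers averaged 8.74 (8.69 to 8.80) and 10.19 (10.12 to 10.27). The unimmunised CD4+ cells were also the only ones of this type from spleen. Eif2s3y was low on their arrays and high on primed and tolerised CD4+ arrays. Marker level, tissue, Eif2s3y level and treatment therefore cannot be told apart. No value without the unimmunised arrays can be had for a comparison with them.

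Set against those arrays, 18 of the 29 genes were called lower in CD4+ cells of primed mice, or 62.1%, where 24.2% of all genes were. Another 4 were called higher, or 13.8%, where 23.3% of all genes were. The median was -0.46, and 0.02 over all genes tested. All 5 endosomal endopeptidases fell. Ctsb went from 11.28, 11.34 and 11.34 to 9.69, 9.65 and 9.61, a fall of 1.67 ± 0.10 (adjusted p = 1.31e-08), and Ctsl from 8.74, 8.63 and 8.75 to 7.10, 7.11 and 7.06, a fall of 1.61 ± 0.20 (adjusted p = 2.12e-05). Ctsd went from 9.52, 9.62 and 9.64 to 8.52, 8.38 and 8.61, a fall of 1.09 ± 0.13 (adjusted p = 1.58e-05). The arrays of these 3 genes did not overlap, which was not particular to them. Ctse fell less, from 9.97, 10.22 and 10.29 to 9.62, 9.59 and 9.63, and Ctss by 0.45 ± 0.12 from 10.52, 11.01 and 10.96 to 10.37, 10.23 and 10.54, with overlap.

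Both cathepsins known from granulated cells, Ctsg and Ctsw, fell. Ctsg stood at 8.13, 8.24 and 9.08 in unimmunised and at 3.17, 3.36 and 3.39 in primed mice, below the median on all 3 arrays, a fall of 5.18 ± 0.19 (adjusted p = 1.76e-10). Only the 3 unimmunised arrays carried Ctsg past the filter, so its p-value is no separate support for the fall. Ctsw went from 7.75, 8.04 and 8.00 to 6.07, 5.77 and 6.34, a fall of 1.87 ± 0.23. Ctsh went from 7.77, 7.78 and 7.87 to 4.58, 4.70 and 4.10, a fall of 3.35 ± 0.40, with its primed mean at the array medians, and Ctsz fell by 1.18 ± 0.19. Lamp2 went from 8.10, 8.12 and 8.07 to 6.79, 6.84 and 6.70 and Lamp1 from 11.12, 11.29 and 11.22 to 10.51, 10.39 and 10.48, falls of 1.32 ± 0.19 and 0.75 ± 0.08. In the pump, Atp6v0a1 went from 7.59, 7.36 and 7.48 to 5.47, 5.36 and 5.54, a fall of 2.02 ± 0.14. With the mean of all probe sets the falls were 1.17 in Atp6v0a1 and 0.89 in Ctsl, whose second probe set averaged 4.92 over the 30 arrays, near their medians. The other V0 a subunit, Atp6v0a2, rose by 0.56 ± 0.10, as did Atp6v0e2 by 1.05 ± 0.17, Ctso by 0.69 ± 0.23 and Atp6v1g2 by 0.42 ± 0.16. Of these, Ctso was not called without unimmunised replicate 1 or 2 or primed replicate 2, and Atp6v1g2, whose groups overlapped, without unimmunised replicate 2 or primed replicate 1 or 3. The unimmunised means of Atp6v0e2, Ctso and Atp6v1g2 were 4.17, 4.01 and 3.96, below the array medians on all 3 arrays. Only the other groups carried these 3 genes past the filter, so their p-values are no separate support for the rises. Atp6v1a, with a fall of 0.43 ± 0.17, was not called without any 1 of the 6 arrays.

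Quantile normalization again moved the median of all genes from 0.02 to 0.14 in this comparison and the split of all genes from 2403 higher and 2493 lower to 3651 and 2142. The 29 then split into 5 higher and 19 lower. Of the 27 other lysosomal genes, 17 were called lower and 2 higher, with Sort1, a sorting receptor, down by 3.74 ± 0.20 and Hexa by 1.42 ± 0.09. In tolerised mice against the same unimmunised arrays, 17 of the 29 were lower (58.6%, against 29.3% of all genes) and 4 higher (13.8%, against 20.3%). The median was -0.44, and -0.03 over all genes. There the same normalization moved the median of all genes to 0.10 and their split from 2093 higher and 3021 lower to 3319 and 2390, and the 29 split into 5 and 16. Atp6v0a1 fell by 2.40 ± 0.14, Ctsl by 1.65 ± 0.20, Lamp2 by 1.25 ± 0.19 and Ctsb by 1.23 ± 0.10. Ctse fell by 0.84 ± 0.10, to 9.31, 9.18 and 9.46. With the mean of all probe sets Atp6v0a1 fell by 1.28 and Ctsl by 0.80.

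**Figure D4:**
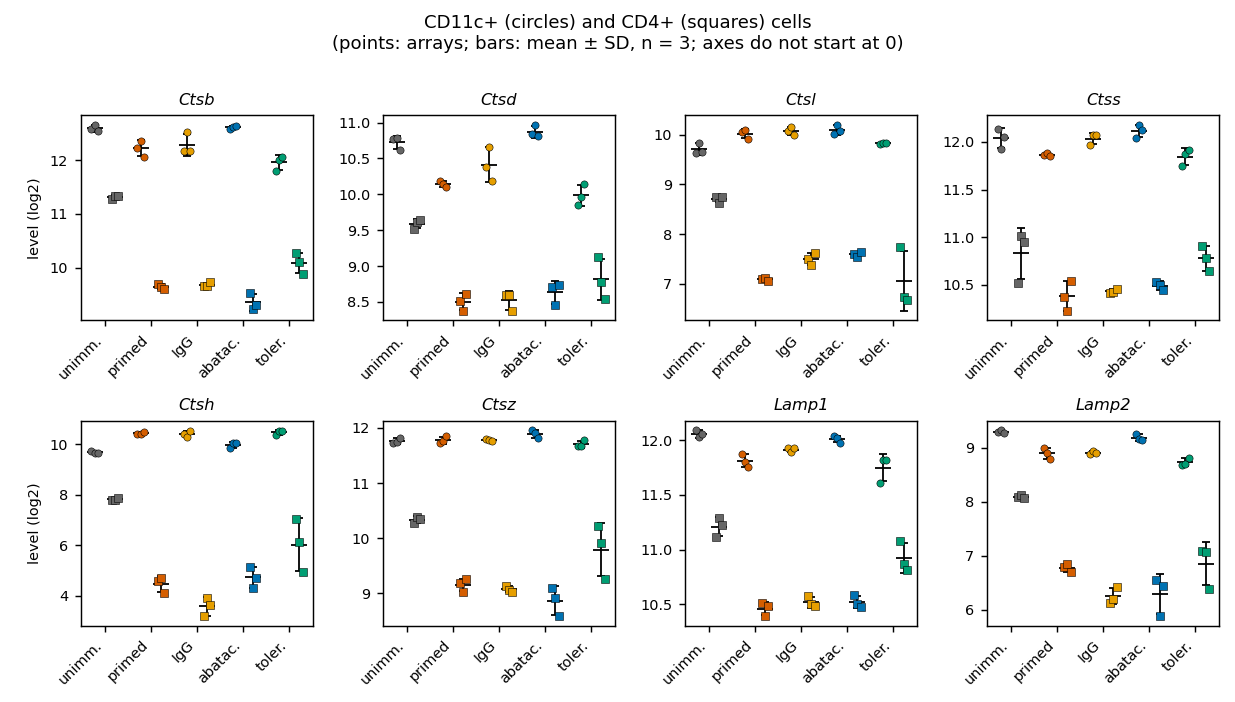
Log2 level on each array for 8 cathepsin and Lamp genes in CD11c+ (circles) and CD4+ cells (squares) of the 5 groups, with mean ± SD (bars, n = 3); each panel has its own axis, which does not start at 0. The CD4+ unimmunised arrays stand above the other CD4+ groups in Ctsb, Ctsd, Ctsl, Ctsh and Lamp2, and the 3 CD4+ tolerised arrays are spread widely in Ctsh, from 4.92 to 7.02.

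Tolerised and primed CD4+ cells do not involve the unimmunised arrays, though they came from mesenteric and axillary nodes. All 7 genes called were higher in tolerised mice, or 24.1% of the 29, where 6.24% of all genes were called higher, and 0 were lower, where 8.43% of all genes were. The median was 0.03, and -0.05 over all genes. Lamp1 stood at 11.08, 10.87 and 10.82 in tolerised mice against 10.51, 10.39 and 10.48, a rise of 0.46 ± 0.08 (adjusted p = 0.00206). Ctsb stood at 10.27, 10.11 and 9.89 against 9.69, 9.65 and 9.61, a rise of 0.44 ± 0.10 (adjusted p = 0.00894). Ctsw stood at 7.62, 7.82 and 6.91 against 6.07, 5.77 and 6.34, a rise of 1.38 ± 0.23 (adjusted p = 0.00134). These groups did not overlap, which also held for Ctse, a gene that was not called.

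Ctsh stood at 7.02, 6.13 and 4.92 in tolerised CD4+ cells, with a rise of 1.56 ± 0.40 (adjusted p = 0.0181), and Ctsz at 10.22, 9.90 and 9.26, with a rise of 0.64 ± 0.19 (adjusted p = 0.0377). Atp6v0d2 stood at 7.0, 6.45 and 5.13 against 5.11, 5.09 and 4.67, a rise of 1.23 ± 0.34 (adjusted p = 0.0284). Tolerised replicate 1 was the highest and replicate 3 the lowest in each of these 3 genes. Ctss stood at 10.91, 10.78 and 10.65 against 10.37, 10.23 and 10.54, a rise of 0.40 ± 0.12 (adjusted p = 0.0412). In a fit on only these groups the calls of Ctsb, Ctsh, Ctss, Ctsz and Atp6v0d2 were lost. The Ctsh call was also lost without tolerised replicate 1 or primed replicate 3. The calls of Ctsz and Atp6v0d2 were lost without any 1 primed array or tolerised replicate 1 or 2, and that of Ctss without primed replicate 1 or 2 or tolerised replicate 1 or 2. Without tolerised replicate 3, 12 of the 29 genes were called, and without each of the other arrays in turn 4 were.

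Markers of other cells moved in the same direction in this comparison. The 5 mast cell and basophil markers averaged 5.62 in tolerised mice (4.52 to 6.17 over arrays) against 3.24 in primed mice, and 5 of 5 were called higher. Red pulp markers averaged 4.40 (3.84 to 5.12) against 3.44 with 5 of 7 called higher, and natural killer cell markers 6.75 (6.39 to 7.05) against 5.92 with 3 of 6. Monocyte and macrophage markers averaged 4.86 (4.32 to 5.60) against 4.05, with 2 of 8 called higher, and Cd14 and Ms4a7 below the median on all tolerised arrays. Class II loading genes were called higher in 5 of 8 tested, with Cd74, the invariant chain, at 1.83 ± 0.36. The part of these transcripts in the cathepsin and Lamp results was not tested. Of the 27 other lysosomal genes, 1 was higher, Grn at 0.83 ± 0.21, and 2 were lower, Lipa at -0.92 ± 0.10 and Glb1 at -0.48 ± 0.11.

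In CD4+ cells under abatacept, Atp6v1a and Ctsb were called lower. None of the 29 genes was called higher, where 3.33% of all genes were, and 2 were lower, or 6.9%, where 13.4% of all genes were. The median was -0.09, and -0.07 over all genes tested. Atp6v1a, the catalytic A subunit of the pump, stood at 7.95, 8.29 and 8.09 under control IgG and at 7.75, 7.35 and 7.48 under abatacept, a fall of 0.59 ± 0.17 (adjusted p = 0.0299). Ctsb stood at 9.66, 9.67 and 9.73 and then at 9.54, 9.23 and 9.30, a fall of 0.33 ± 0.10 (adjusted p = 0.0358). The groups did not overlap, which also held for genes that were not called. Both calls were lost without control IgG replicate 2 or 3 or abatacept replicate 2 or 3, and that of Ctsb also without control IgG replicate 1. Both were lost after quantile normalization again, which moved the split of all genes from 344 higher and 1378 lower to 626 and 857. Ctsd stood at 8.60, 8.60 and 8.37 and then at 8.71, 8.45 and 8.74, Ctsl at 7.50, 7.38 and 7.61 and then at 7.59, 7.55 and 7.64. Ctss, Ctse, Lamp1 and Lamp2 had means of 10.43, 9.74, 10.52 and 6.25 under control IgG and 10.49, 9.65, 10.52 and 6.29 under abatacept. None of these 6 was called.

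Between the cell types, most of the genes were higher in CD11c+ cells. In unimmunised mice 23 of the 29 were, or 79.3%, where 27.8% of all 10838 genes tested were, and 3 were lower, or 10.3%, where 38.6% of all genes were. The median was 0.60, and -0.08 over all genes tested. In primed mice 22 were higher, or 75.9%, against 29.1% of all genes, and 2 lower, or 6.9%, against 34.1%. The median there was 0.86, and -0.07 over all genes. The cell types were isolated in different ways, and in primed mice from different tissue. In primed mice quantile normalization again moved the median of all genes to -0.23 and their split from 3158 higher and 3696 lower to 2720 and 5146, and the 29 to 21 higher and 5 lower.

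In primed mice Ctsh stood at 10.38, 10.41 and 10.49 in CD11c+ cells against 4.58, 4.70 and 4.10, a difference of 5.96 ± 0.30. Those CD4+ values lie around the array medians, so the size of this difference is not exact. Atp6v0a1 differed by 3.05 ± 0.12, at 8.53, 8.44 and 8.54 against 5.47, 5.36 and 5.54. Ctsl differed by 2.92 ± 0.16, Ctsz by 2.62 ± 0.15, Ctsb by 2.56 ± 0.10 and Lamp2 by 2.12 ± 0.15. Each of these was larger than in unimmunised mice, where Ctsh differed by 1.87 ± 0.30, Atp6v0a1 by 1.23 ± 0.12, Ctsl by 1.0 ± 0.16, Ctsz by 1.43 ± 0.15, Ctsb by 1.27 ± 0.10 and Lamp2 by 1.21 ± 0.15. With the mean of all probe sets Ctsl differed by 1.41 in primed and 0.57 in unimmunised mice, Atp6v0a1 by 1.77 and 0.80, and Ctsb by 2.04 in unimmunised mice. The change in gap between the 2 conditions was not tested, and the unimmunised CD4+ arrays carried the macrophage markers described above. Ctss differed by 1.21 ± 0.10 in unimmunised and 1.49 ± 0.10 in primed mice, Ctsd by 1.14 ± 0.13 and 1.64 ± 0.13, and Lamp1 by 0.85 ± 0.07 and 1.35 ± 0.07. In primed mice the 7 V1 genes were all called higher in CD11c+ cells, by 0.23 in Atp6v1d to 1.16 in Atp6v1b2, with that of Atp6v1g2 lost in 8 of 14 alternatives.

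Ctse was the endopeptidase that was higher in CD4+ cells. Its difference, CD11c+ minus CD4+, was -2.47 ± 0.16 in unimmunised mice (adjusted p = 7.71e-12) and -1.08 ± 0.16 in primed mice (adjusted p = 3.67e-06), and no array of the CD11c+ cells reached the lowest CD4+ array in either condition. Lack of overlap between the cell types was not particular to Ctse. Ctsg and Ctsw were also lower in unimmunised CD11c+ cells, at -5.24 ± 0.39 and -0.75 ± 0.25, Ctsw with overlap. In unimmunised mice Ctsg was above the array medians in CD4+ cells only. The Ctsw call was lost without CD11c+ unimmunised replicate 1 or 2 and without the arrays high in Amy1. The neutrophil and mast cell markers were also high on those CD4+ arrays and their part was not tested. In primed mice Ctsw was higher in CD11c+ cells by 1.79 ± 0.25, and Atp6v0e2 was lower at -0.43 ± 0.18, a call lost in a fit on only these groups and without CD11c+ primed replicate 1 or 3 or CD4+ primed replicate 1. Of the 27 other lysosomal genes, 27 were higher in unimmunised CD11c+ cells and 24 in primed ones, with 0 lower in either. The 4 MiT/TFE genes were higher in both, with Mitf at 1.79 ± 0.19 and 3.11 ± 0.19.

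**Figure D5:**
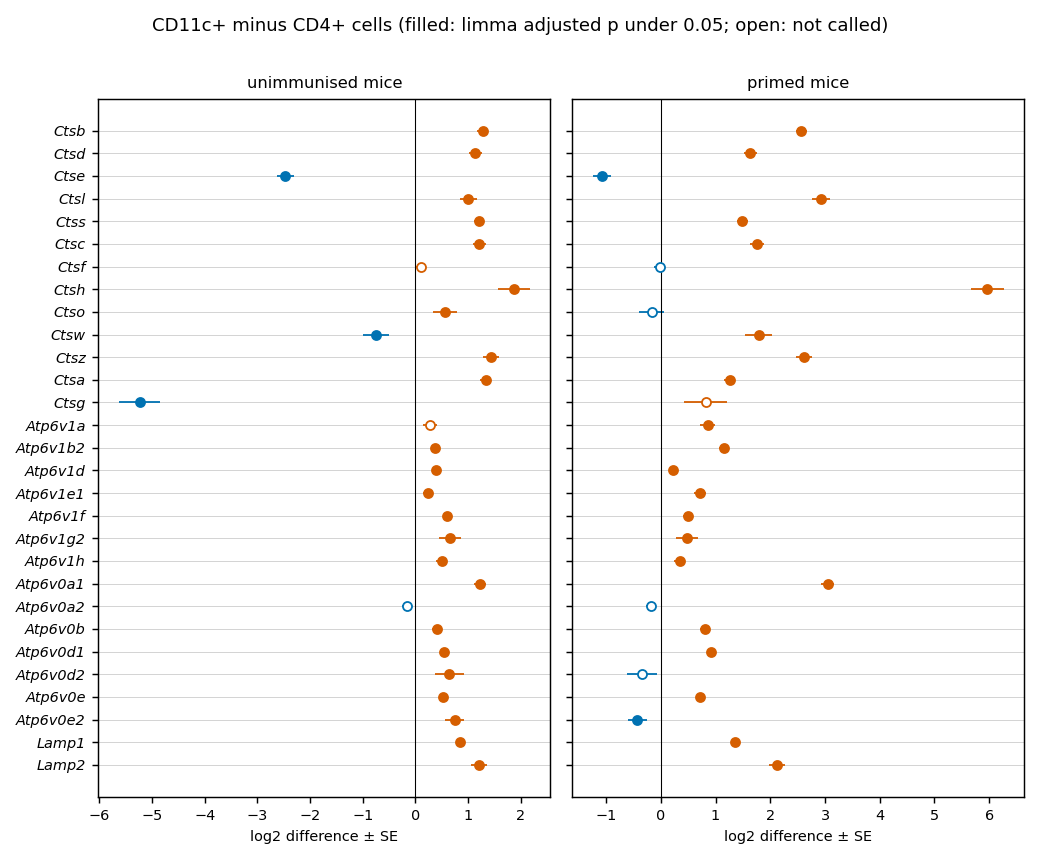
Log2 difference ± SE between CD11c+ and CD4+ cells for the 29 genes tested, in order of role, in unimmunised mice (left) and primed mice (right); points right of 0 are higher in CD11c+ cells, and filled points passed an adjusted p of 0.05 in limma. In unimmunised mice 23 genes lie to the right as filled points, and Ctse lies to the left in both panels.

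The difference of differences between the cell types was fitted over all 30 arrays. In CD11c+ cells Eif2s3y was high in primed and control IgG arrays and low in tolerised and abatacept arrays. In CD4+ cells it was high in both primed and tolerised arrays and low in both control IgG and abatacept arrays. Neither test therefore separates treatment from this split, and CD4+ cells of tolerised and primed mice also came from different nodes. For tolerised minus primed mice, 0 of the 29 genes were called higher in CD11c+ cells, where 6.27% of all genes were, and 4 were lower, or 13.8%, where 4.94% of all genes were. These were Lamp1, Ctsb, Ctsz and Ctsh, whose levels were higher in tolerised than in primed CD4+ cells and were not called in CD11c+ cells. Without CD4+ tolerised replicate 1 there were 2 calls, and without CD4+ tolerised replicate 3 there were 7. For abatacept minus control IgG, 4 were higher, or 13.8%, against 9.29% of all genes, and 1 was lower, or 3.45%, against 4.97%. The higher ones were Ctsb, Atp6v1a, Ctsa and Atp6v0d1, and the lower one was Ctsh. Without CD11c+ control IgG replicate 1 or 3 or CD11c+ abatacept replicate 1 there were 3 calls, and without abatacept replicate 2 of either cell type there were 2. Quantile normalization again moved the split of all genes in this last test from 1007 higher and 539 lower to 811 and 690, and that of the 29 to 2 and 2.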

How the data were processed

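Amplified RNA was measured on Affymetrix PM arrays of the mouse genome. The deposited table holds log2 values per probe set, made by the authors with RMA, per the submitters' processing notes, with no version stated. Of 45118 probe sets, 28898 had 1 symbol in the platform annotation, 551 several and 15669 none. For each gene the probe set whose mean over all 30 arrays was highest stood for it. Comparisons used lmFit and eBayes of limma 3.58.1 (R 4.3.3), over the 15 arrays of a cell type or over all 30 between cell types. Calls needed a two-sided p under 0.05 after Benjamini-Hochberg adjustment over all genes tested. The procedure was tested on simulated data. Per-array values and statistics were given for at most 8 called members a comparison, those with the largest differences, and for Ctss, Ctsl, Ctsb, Ctsd, Ctse, Lamp1 and Lamp2, and of other lists for at most 4 called genes with the smallest adjusted p; further members are named by their differences. The members and lists were chosen with earlier results of these data known. The replicate number was not used as a pairing in the main fits. Between groups, deviations of same-numbered arrays correlated between -0.191 and 0.325 in CD11c+ and between -0.230 and 0.132 in CD4+ cells. For arrays of unlike number the ranges were -0.489 to 0.322 and -0.183 to 0.208. Whether CD11c+ and CD4+ arrays came from the same mice was not examined, and fits over both cell types treated all arrays as independent. Alternatives were quantile normalization again, the mean of all probe sets, no filter, the replicate block, array weights, a fit on only the compared groups, a salivary covariate, leaving out arrays with Amy1 over 7, and leaving out each array. The number of arrays limits the precision.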

Additional observations from a re-analysis of the deposited data

Results flagged for a closer look

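The difference of differences between the cell types passed the test for the following genes. Neither test separates treatment from the Eif2s3y split in CD11c+ cells, nor the first one from the node of the CD4+ cells. For tolerised minus primed mice, CD11c+ minus CD4+, the values were -0.69 in Ctsb (adjusted p = 0.00253 in limma), -1.52 in Ctsh (0.0215), -0.71 in Ctsz (0.0254) and -0.53 in Lamp1 (0.00126). In CD4+ cells every tolerised array of these 4 genes was above every primed array, and in CD11c+ cells none of the 4 was called. For abatacept minus control IgG the values were 0.65 in Ctsb (0.00363), 0.67 in Atp6v1a (0.0208), 0.49 in Ctsa (0.0267), 0.37 in Atp6v0d1 (0.0185) and -1.57 in Ctsh (0.016). Ctsh fell by 0.42 in CD11c+ cells and differed by 1.15 in CD4+ cells, where it was not called (adjusted p = 0.0665) and where its control IgG arrays, at 3.19, 3.9 and 3.63, lay below the array medians. Of the 9 calls, 3 were kept in every alternative: Ctsb in both tests and Lamp1.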

How the results depend on the processing

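Counts of called genes among the 29 stayed within 1.5 times the main count in every alternative run for primed or tolerised minus unimmunised mice in each cell type, for control IgG minus primed mice, and for CD11c+ minus CD4+ cells in unimmunised and primed mice. For CD11c+ tolerised minus primed mice (1 call) array weights gave 2, the mean of all probe sets 0, leaving out arrays with Amy1 over 7 gave 0, and leaving out 1 array gave 0 to 1. For CD11c+ abatacept minus control IgG (3) a fit on only the groups gave 5, array weights 7, the mean of all probe sets 6, leaving out arrays with Amy1 over 7 gave 0, and leaving out 1 array 1 to 4. For CD4+ tolerised minus primed mice (7) a fit on only the groups gave 2, and leaving out 1 array 4 to 12. For CD4+ abatacept minus control IgG (2) no filter gave 1, quantile normalization again 0, array weights 5, the mean of all probe sets 1, and leaving out 1 array 0 to 3. For the difference between cell types in tolerised minus primed mice (4) a fit on only the groups gave 2, and leaving out 1 array 2 to 7. For that in abatacept minus control IgG (5) array weights gave 8, leaving out arrays with Amy1 over 7 gave 1, and leaving out 1 array 2 to 5. With the mean of all probe sets the difference between primed and unimmunised CD11c+ cells turned to 0.20 in Ctsc and to -0.055 in Ctsl, where the other probe sets went the other way. Over all genes, counts of calls that moved by over 1.5 times were the following. In CD11c+ cells, tolerised minus primed mice had 290, and 110 in a fit on only the groups, 532 with array weights, 80 without the arrays high in Amy1 and at least 76 without 1 array. Control IgG minus primed mice had 2, and 0 to 150 over the alternatives, with 150 under array weights. CD11c+ abatacept minus control IgG had 1560, and 2696 with array weights, 958 with the salivary covariate, 433 without the arrays high in Amy1 and at least 524 without 1 array. CD4+ tolerised minus primed mice had 1514, and 822 in a fit on only the groups and 997 without tolerised replicate 1, and CD4+ abatacept minus control IgG had 1722 and at least 1036 without 1 array. The difference between cell types under abatacept had 1546, and 2513 with array weights, 936 without the arrays high in Amy1 and 1013 without CD11c+ control IgG replicate 3. The replicate block gave 12, 15, 1, 0 and 4 calls for the CD11c+ comparisons in the order of the text, in place of 12, 16, 1, 0 and 3, and no count moved by over 1.5 times. Beyond the probe sets of Ctsc and Ctsl, the cause of these shifts was not tested. Values near the array medians limit what Ctsf, Ctsg, Ctso, Atp6v0d2, Atp6v0e2, Atp6v1g2 and, in CD4+ cells, Ctsh can show.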
